A study of Mus musculus with 6 samples.

Results

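The genes described are 8 enzymes and transporters by which the kidney makes ammonia and takes back bicarbonate. They are Glud1, Slc4a4, Slc9a3, Slc13a2, Car2, Car4, Car12 and Car14. They were found through the RefSeq accessions of the array's probes, which gave 12 probes of 56605, and all 8 genes were among the 17136 genes tested. All 12 probes lay well above background on all 6 arrays, so no gene entered through a filter on dim signals. The measured tissue was whole kidney from C57BL/6J mice aged 32 weeks, with 3 arrays labelled wild-type (WT) and 3 labelled Pck1-CKO. Pck1-CKO mice are Pck1 flox/flox mice that carry 1 copy of a γGT-Cre transgene, written γGT-Cre tg/+, which directs the deletion to the proximal tubule. The WT mice were littermates matched for age and sex. By the labels' account of the breeding, some controls were Pck1 flox/flox and some Pck1 flox/+, both without Cre, and others were Pck1 flox/+ with γGT-Cre tg/+. Which kind each WT array holds was not stated in the labels, nor was the sex. Cells outside the proximal tubule are not the target of the deletion.

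In the proximal tubule, glutamine is broken down to glutamate and then to 2-oxoglutarate, which frees ammonium for the urine and new bicarbonate for the blood. Pck1, the cytosolic phosphoenolpyruvate carboxykinase, carries the remaining carbon towards glucose, so it stands downstream of ammonia production. Filtered bicarbonate is recovered by secreting protons into the lumen, turning bicarbonate into carbon dioxide with carbonic anhydrase at the brush border, and turning it back into bicarbonate inside the cell, which then leaves across the basolateral membrane. Citrate is filtered base as well, and its uptake from the lumen belongs to the same task.

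Between 37116 and 38708 probes lay well above background on an array. The comparison called 1377 of 17136 genes at an adjusted p under 0.05 (limma, Benjamini-Hochberg), which is 8.04%. Whether the 3 arrays of a group are 3 mice is not stated in the labels, so a p-value here reflects the spread among arrays, which may be technical. WT arrays occupied slide row 1 and Pck1-CKO arrays slide row 2 of 1 slide, so the row cannot be told apart from the genotype. Levels below are log2 of the processed signal after subtracting each array's 75th percentile, and a change is the Pck1-CKO mean minus the WT mean. The proximal tubule markers Slc5a2, Lrp2 and Slc34a1 were bright on every array, between 6.56 and 7.92. Among 7 markers of the early and middle proximal tubule, 0 passed the limma test (without adjustment p was under 0.05 for 1 higher and 1 lower marker).

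The signal of the targeted gene was no lower in arrays labelled Pck1-CKO. Pck1 was at 6.29, 6.32 and 5.63 in WT and at 6.44, 6.60 and 6.90 in Pck1-CKO. The change of Pck1 on the log2 scale, 0.56 ± 0.22 (SE; 3 arrays in each group), had a limma adjusted p of 0.152. A single probe, A_66_P121110, stands for Pck1. Whether it lies within the deleted part of the gene is not stated in the labels, and a probe outside that part may not show the deletion. All directions below are therefore those of the arrays labelled Pck1-CKO.

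Of the 8 genes, 1 passed the test, against the 8.04% of all tested genes given above (4.34% higher and 3.7% lower). This was Car4, which encodes the carbonic anhydrase anchored to the outer face of the brush border. It rose 1.28-fold. In 6 of the 8 genes the change was positive, beside 8947 of all 17136 tested genes, and in Car12 and Car14 it was negative. The 2 genes whose groups did not overlap, Car2 and Car4, were both higher in Pck1-CKO. The same 2 genes had an unadjusted p under 0.05, against 31.2% of all tested genes. Separate groups were found in 38.3% of all tested genes, with Pck1-CKO above WT in 21.9% and below it in 16.4%. The median log2 change over the 8 genes was 0.11, beside 0.01 over all tested genes.

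**Figure D1:**
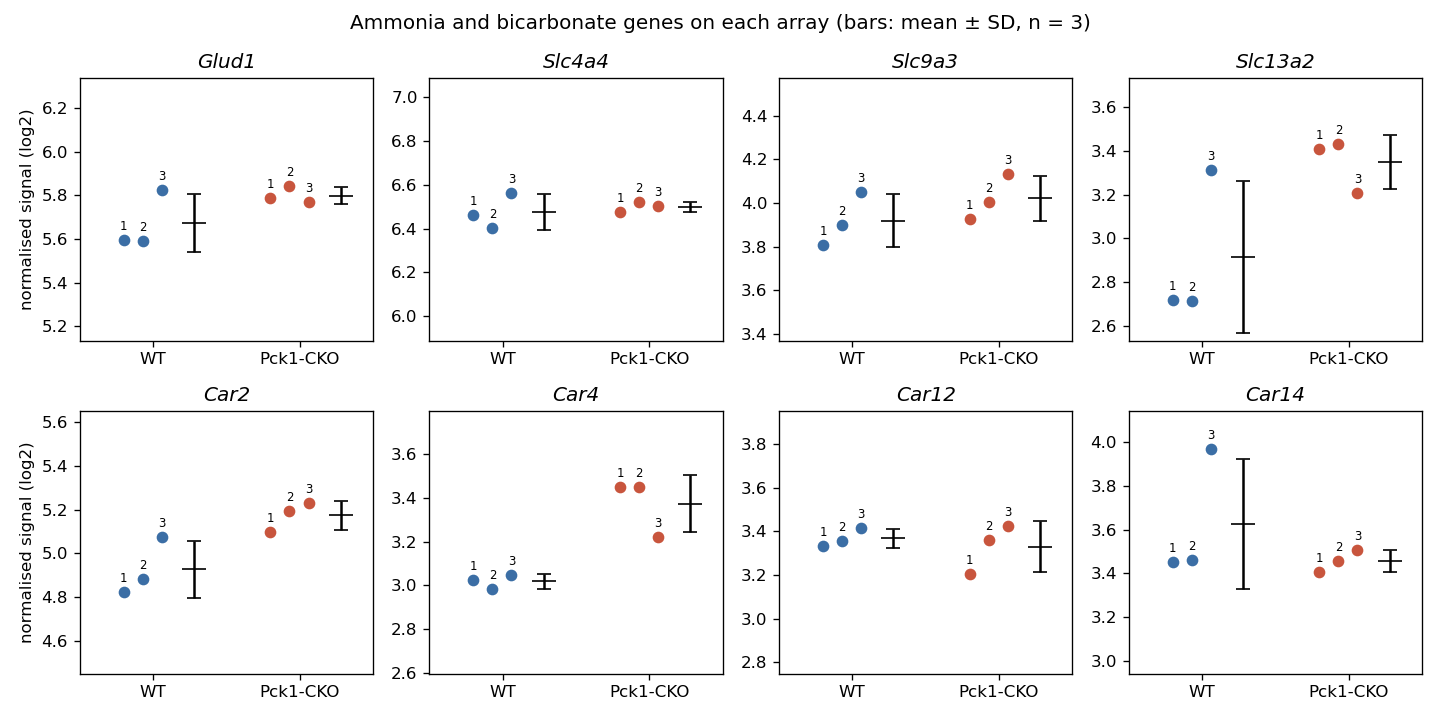
Normalised log2 signal of the 8 genes on each array, with WT in blue and Pck1-CKO in red; numbers are the replicate numbers, bars give the mean ± SD of 3 arrays, and every panel spans the same range of log2 units around its own mean. Car4 and Car2 are the genes whose groups do not overlap, and WT 3 is the highest WT array in all 8 panels.

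The promoters of the 3 genes at the ends of the range are shown because Slc13a2 and Car4 had the largest positive changes and Car14 the largest negative one. Each is the stretch of 250 bases before the annotated start, 5′ to 3′ on the strand of the gene, from RefSeq on GRCm38.p6, another build than that of the array files. Car4 is at chr11:84957504-84957753 on the plus strand, Slc13a2 at chr11:78422235-78422484 on the minus strand and Car14 at chr3:95904686-95904935 on the minus strand. Capitals mark GTTAAC, 6 bases that resemble 1 arm of the longer palindrome bound by the HNF1 factors, transcription factors active in the proximal tubule.

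Car4: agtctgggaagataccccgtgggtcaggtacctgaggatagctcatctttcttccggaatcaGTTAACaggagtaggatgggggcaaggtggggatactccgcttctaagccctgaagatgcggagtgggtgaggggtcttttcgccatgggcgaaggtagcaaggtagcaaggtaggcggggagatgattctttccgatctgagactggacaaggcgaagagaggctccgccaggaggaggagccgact
Slc13a2: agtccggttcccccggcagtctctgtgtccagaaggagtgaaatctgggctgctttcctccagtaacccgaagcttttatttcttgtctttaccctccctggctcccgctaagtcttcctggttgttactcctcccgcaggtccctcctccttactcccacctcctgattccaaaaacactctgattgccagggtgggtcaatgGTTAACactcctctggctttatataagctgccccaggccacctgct
Car14: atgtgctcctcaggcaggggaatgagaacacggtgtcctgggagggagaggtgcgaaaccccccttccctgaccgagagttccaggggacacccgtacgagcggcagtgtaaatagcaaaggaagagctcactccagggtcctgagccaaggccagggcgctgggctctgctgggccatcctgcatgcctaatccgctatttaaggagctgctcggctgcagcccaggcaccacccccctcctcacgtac

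GTTAAC, searched on both strands, began 188 bases before the start in Car4 and 46 bases before it in Slc13a2. It was not in the windows of Car14, Car12, Glud1, Slc9a3 or either of the 2 annotated starts of Slc4a4, and Car2 was not matched. The motif was chosen after the sequences had been read. Of all 32851 promoter windows of this length, 2.56% held it. TATAAA, searched on both strands as well, matched in 1 of the 8 windows, that of Slc13a2, and in 12.4% of all windows. The match in Slc13a2 is on the strand opposite the gene, so the printed strand reads TTTATA there, from 29 bases before the start. CAAAGTCCA, a site of HNF4 and also searched on both strands, was in 0 of the 8 windows and in 0.384% of all windows. A match of letters is a description and shows no binding.

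Ammonia production was represented by Glud1, the mitochondrial glutamate dehydrogenase, which releases the nitrogen of glutamate as ammonium. Glud1 was at 5.60, 5.59 and 5.82 in WT and at 5.79, 5.84 and 5.77 in Pck1-CKO. WT 3 lay inside the Pck1-CKO range, and the other WT arrays lay below it. The log2 change was 0.13 ± 0.07 (SE; 95% confidence interval -0.06 to 0.31; limma adjusted p = 0.297), so Glud1 did not pass. Without WT 3 it was 0.20 with adjusted p = 0.0560, and over all 18 alternatives the adjusted p lay between 0.0301 (array weights) and 0.557. A second Glud1 probe (A_55_P2611006) was at 2.21, 2.19 and 2.53 in WT and at 2.43, 2.53 and 2.55 in Pck1-CKO. It showed the same high WT 3, and its change was 0.20 ± 0.11.

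Slc9a3 encodes NHE3, the sodium-proton exchanger of the brush border that secretes most of the acid there. Its level was 3.81, 3.90 and 4.05 in WT compared with 3.93, 4.01 and 4.13 in Pck1-CKO, so the groups overlapped. This gave a log2 change of 0.10 ± 0.08 (95% confidence interval -0.11 to 0.31; limma adjusted p = 0.449). The interval allows a fold between 0.929 and 1.24. The change of Slc9a3 was 0.046 without WT 1, 0.047 without Pck1-CKO 3 and 0.17 without WT 3. A second, dim probe (A_52_P82701) read 61.5, 60.6 and 64.6 units of processed signal in WT compared with 67.0, 68.2 and 69.4 in Pck1-CKO. After scaling it was at -3.10, -3.21 and -3.17 in WT and at -3.06, -3.09 and -3.07 in Pck1-CKO. The groups of this probe did not overlap, and its log2 change was 0.09 ± 0.05, with limma adjusted p = 0.288 over all probes.

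Slc4a4 encodes NBCe1, the sodium-bicarbonate cotransporter through which bicarbonate leaves the cell on the blood side. It had the smallest change of the 8 genes. Its level was 6.46, 6.40 and 6.56 in WT compared with 6.48, 6.52 and 6.50 in Pck1-CKO, and all 3 Pck1-CKO arrays fell within the WT range. Its log2 change of 0.02 ± 0.05 came with a 95% confidence interval of -0.11 to 0.16 and limma adjusted p = 0.784. In fold this is 0.929 to 1.11. A second Slc4a4 probe (A_55_P1959228) was at 4.55, 4.50 and 4.77 in WT and at 4.70, 4.76 and 4.64 in Pck1-CKO, so its groups overlapped as well. Its change was 0.09 ± 0.09. Without WT 2 the change of Slc4a4 was -0.013.

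Slc13a2 encodes NaDC1, the brush border carrier that takes up citrate and other dicarboxylates with sodium. It had the largest change of the 8 genes but did not pass the test. Its level was 2.72, 2.71 and 3.31 in WT compared with 3.41, 3.43 and 3.21 in Pck1-CKO. WT 3 lay above Pck1-CKO 3, while WT 1 and WT 2 were nearly equal and lay well below every Pck1-CKO array. The change was 0.44 ± 0.18 on the log2 scale (95% confidence interval -0.01 to 0.88; limma adjusted p = 0.168), a fold of 1.35. Without WT 3 the change of Slc13a2 was 0.63 with adjusted p = 0.0350, which passed. Over all 18 alternatives the adjusted p of Slc13a2 lay between 0.0136 and 0.363. Slc13a2 and Car2 are the genes that passed without WT 3, whereas Car4 then did not.

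Car4 was at 3.02, 2.98 and 3.05 in WT and at 3.45, 3.45 and 3.22 in Pck1-CKO. The WT arrays lay close together, and Pck1-CKO 3 stood between them and the other Pck1-CKO arrays. The means were 3.02 ± 0.03 (SD, n = 3) in WT and 3.37 ± 0.13 (SD, n = 3) in Pck1-CKO. Car4 had a log2 change of 0.36 ± 0.07 (95% confidence interval 0.17 to 0.54; limma adjusted p = 0.0459). In processed signal before scaling, Car4 read 4302, 4422 and 4814 units in WT and 6111, 6322 and 5445 in Pck1-CKO. Fitted with every probe rather than 1 per gene, its adjusted p was 0.0603. The scanner software gave each of these spots an error of 0.14 on the log2 scale. It gave 0.14 to the spots of the other members too, save the dim Slc9a3 probe at 0.15 to 0.16. The value is therefore not particular to the Car4 spots.

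The call of Car4 lay near the threshold and was lost on leaving out most arrays. Leaving out WT 1 gave an adjusted p of 0.129, WT 2 gave 0.137 and WT 3 gave 0.0677. Leaving out Pck1-CKO 1 gave 0.126 and Pck1-CKO 2 gave 0.156. It was 0.0171 without Pck1-CKO 3. The log2 change stayed between 0.31 and 0.43 over all 18 alternatives, of which 9 kept the call, and the adjusted p between 0.00671 and 0.156. Across the whole array the calls also fell, from 1377 to between 25 and 70 genes without WT 1, WT 2, Pck1-CKO 1 or Pck1-CKO 2. Without WT 3, where Car4 lost its call as well, the count over all genes stayed at 1368.

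Car2 encodes the soluble carbonic anhydrase II, which works inside the cell in the proximal tubule and is abundant in intercalated and red cells too. Its level was 4.82, 4.88 and 5.07 in WT compared with 5.10, 5.19 and 5.23 in Pck1-CKO. Every Pck1-CKO array lay above every WT array, and WT 3 and Pck1-CKO 1 were the closest pair across the groups. Car2 had a log2 change of 0.25 ± 0.08 (95% confidence interval 0.05 to 0.44), a fold of 1.19, but limma adjusted p = 0.102 missed the threshold. Without WT 3 the change of Car2 was 0.32 with adjusted p = 0.0448, and with a variance trend the adjusted p was 0.0443. Over all 18 alternatives it lay between 0.0142 and 0.262.

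Car12, a membrane-spanning carbonic anhydrase with its active site outside the cell, did not pass the test. Its level was 3.33, 3.35 and 3.42 in WT compared with 3.20, 3.36 and 3.43 in Pck1-CKO, so the Pck1-CKO arrays lay on both sides of WT. Car12 showed a log2 change of -0.04 ± 0.07, with a 95% confidence interval of -0.21 to 0.13 and limma adjusted p = 0.740. With median scaling it was 0.038, so its direction depends on the scaling.

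Car14 encodes another membrane-spanning isoform, which faces the lumen and the basolateral space of the proximal tubule. It was at 3.45, 3.46 and 3.97 in WT and at 3.41, 3.46 and 3.51 in Pck1-CKO. WT 3 stood alone above all other arrays, and the other WT arrays lay among those of Pck1-CKO. The log2 change of -0.17 ± 0.15 (95% confidence interval -0.54 to 0.20; limma adjusted p = 0.473) rested on that array, and without WT 3 it was 0.00078. A second Car14 probe, annotated to another transcript (A_55_P2727429, NM_001355752), was at 0.43, 0.62 and 1.17 in WT and at 0.57, 0.67 and 0.83 in Pck1-CKO. It was likewise highest in WT 3, and its change was -0.05 ± 0.20.

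**Figure D2:**
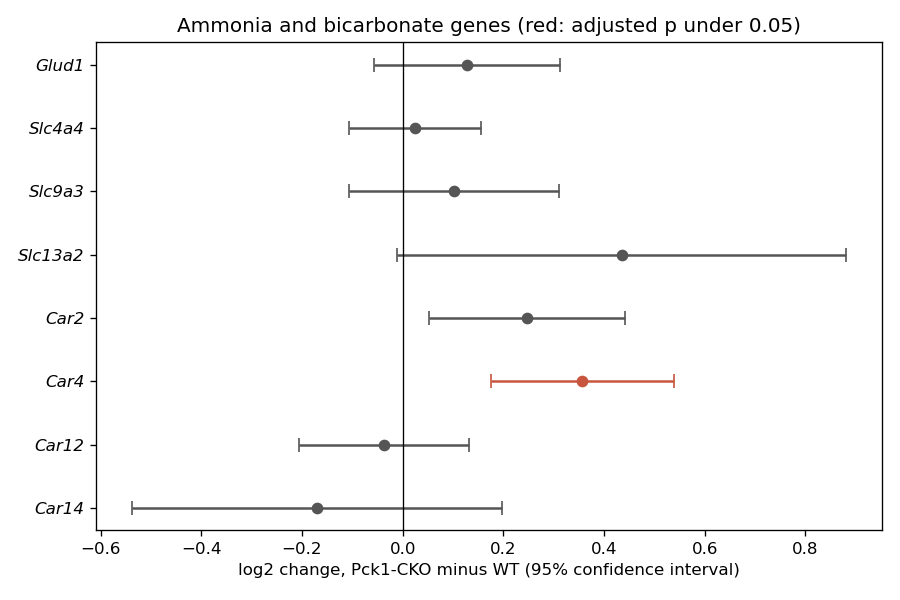
Log2 change (Pck1-CKO minus WT) of each of the 8 genes with its 95% confidence interval from limma; red marks an adjusted p under 0.05. The intervals of Car2 and Car4 lie above 0, that of Slc13a2 reaches from -0.01 to 0.88, and Car4 is the one that passed after adjustment.

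WT 3 was the highest WT array in all 8 genes. Among all tested genes WT 3 was the highest WT array in 44.3%. The excess of WT 3 over the mean of WT 1 and WT 2 was largest in Slc13a2 at 0.60 and Car14 at 0.51 on the log2 scale. It was 0.23 in Glud1, 0.22 in Car2, 0.20 in Slc9a3, 0.13 in Slc4a4, 0.07 in Car12 and 0.05 in Car4. The median excess was 0.21 over the 8 genes and 0.02 over all tested genes. Pck1 went the other way and was lowest in WT 3. The summed level of the 7 markers of the early and middle proximal tubule was 9.43, 9.41 and 9.54 in WT compared with 9.45, 9.50 and 9.49 in Pck1-CKO, so it too was highest in WT 3. The part of these cells in the WT 3 values was not tested. In whole kidney, fewer cells of a type and less RNA per cell cannot be told apart.

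Markers of cells other than those of the early and middle proximal tubule are given beside Car4 and Car2. All 7 adipocyte markers had positive changes, and 3 passed. Their summed log2 level was 3.77 to 4.51 in WT and 6.03 to 6.45 in Pck1-CKO, highest in Pck1-CKO 3, the array where Car4 was lowest among Pck1-CKO. Of the 6 endothelial markers, 0 passed in limma (without adjustment p was under 0.05 for 2, both lower). Their sum was 5.39 to 5.45 in WT and 5.25 to 5.38 in Pck1-CKO, while Car4, which endothelium also expresses, was higher. The summed level of 6 markers of the late proximal tubule was 8.74 to 8.81 in WT and 9.14, 9.08 and 8.95 in Pck1-CKO, with 1 marker higher (Acy3) and 1 lower (Slc22a19). That sum was lowest among Pck1-CKO in Pck1-CKO 3, as Car4 was. Sums here are of signal before log2, so the brightest marker, in this list Acy3, weighs most. Acy3, Slc22a7 and Cyp7b1 were lowest among Pck1-CKO in Pck1-CKO 3, while Slc7a13, Slc22a19 and Aqp7 were highest in it. Of 9 intercalated cell markers, 4 were lower and 0 higher, and their sum was 6.36 to 6.45 in WT and 6.06 to 6.10 in Pck1-CKO, while Car2 lay higher in every Pck1-CKO array. Of 6 principal cell markers 2 were higher, and their sum was 5.75 to 5.94 in WT and 6.13 to 6.14 in Pck1-CKO, so it lay higher in every Pck1-CKO array, as Car2 did. Of 4 thick ascending limb markers 1 was higher, and their sum was 8.63 to 8.71 in WT and 8.85, 8.81 and 8.77 in Pck1-CKO. Of 4 thin limb markers 2 were higher, and their sum was 7.06 to 7.16 in WT and 7.31, 7.31 and 7.20 in Pck1-CKO. Both sums lay higher in every Pck1-CKO array and were lowest among Pck1-CKO in Pck1-CKO 3, as Car4 was. Each thin limb marker was also lowest there among Pck1-CKO. In the thin limb sum Aqp1 weighs most, at 6.75 to 6.84 across the arrays, and its log2 change was 0.04 (limma adjusted p = 0.481). Aqp1 is also among the genes of apical acid secretion described below, so this sum is not particular to the thin limb. The 2 thin limb markers that passed were Bst1, with a change of 0.67, and Akr1b3, with 0.61. The thick ascending limb markers were divided. Umod, by far the brightest, and Kcnj1 were lowest in Pck1-CKO 3, while Slc12a1 and Cldn16 were highest in it. Of 3 distal convoluted tubule markers 1 was lower, with sums of 4.17 to 4.32 in WT and 3.76 to 3.92 in Pck1-CKO, and of 4 podocyte markers 1 was lower, with sums of 4.69 to 4.82 in WT and 4.44 to 4.56 in Pck1-CKO. Of 5 macrophage markers 0 passed in limma (1, lower, had an unadjusted p under 0.05), with sums of 4.60 to 4.61 in WT and 4.52 to 4.59 in Pck1-CKO. Of 4 tested red cell markers, Slc4a1, which intercalated cells share, was lower. The other 3 had positive log2 changes, 0.36 in Hba-a1, 0.21 in Hbb-bt and 0.41 in Alas2. None of these passed in limma (without adjustment p was under 0.05 for 2, Hba-a1 and Alas2). All 3 were highest among Pck1-CKO in Pck1-CKO 3, as Car2 was, but not highest among WT in WT 3, where Car2 was. The sum of all 4 was 8.07 to 8.41 in WT and 8.37 to 8.72 in Pck1-CKO, so the groups overlapped. The part of these cells in the values of Car4 and Car2 was not tested.

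The genes whose arrays most resembled those of Car4 were sought among all tested genes, by the distance between values centred on each gene's own mean over the 6 arrays. Trpv4, a calcium-permeable channel gene, was closest at a distance of 0.03 on the log2 scale. It was at 3.99, 3.94 and 4.02 in WT and at 4.43, 4.40 and 4.21 in Pck1-CKO. Adh1, an alcohol dehydrogenase, and Sult1a1, a sulfotransferase, followed at 0.04 and 0.05. Their log2 changes were 0.36 for Trpv4, 0.34 for Adh1 and 0.32 for Sult1a1. Trpv4 and Sult1a1 passed in limma with adjusted p = 0.0392 and 0.0499, and Adh1 had 0.0541. Over the 18 alternatives Trpv4 lost its call in 7, with adjusted p between 0.00625 and 0.143, and Sult1a1 in 12, with adjusted p between 0.00738 and 0.166. Trpv4 was lost without WT 1, WT 2, WT 3, Pck1-CKO 1 or Pck1-CKO 2, and so was Sult1a1. Being chosen for their likeness to Car4, these genes share its order of arrays and size of change by construction.

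The rest of the pathway was described with 5 lists of 74 genes, of which 69 were tested. Of these 69, 2 genes rose and 1 fell, 44 had a positive change, and the median log2 change was 0.06. Over all tested genes 8.04% passed and 8947 of 17136 had a positive change, so the 3 calls do not set these lists above the background. An unadjusted p under 0.05, given for each list below, was found in 31.2% of all tested genes. These 3 calls were Slc1a5, Slc13a1 and Car3, from different lists.

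**Figure D3:**
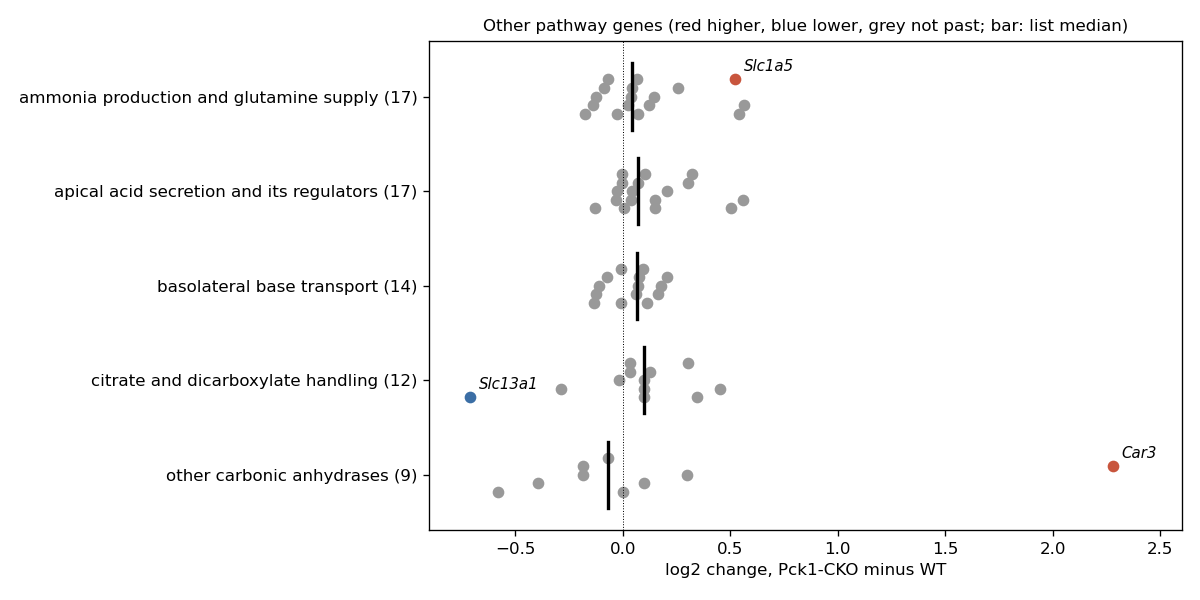
Log2 change (Pck1-CKO minus WT) of the 69 other tested pathway genes in 5 lists, with the number tested in brackets and the list's median as a black bar; spread along the vertical axis only separates points. Slc1a5 and Car3 (red) passed as higher and Slc13a1 (blue) as lower, and the list medians lie between -0.07 and 0.10.

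Among 17 genes of ammonia production and glutamine supply, 1 rose and 0 fell in limma (without adjustment p was under 0.05 for 4 higher and 0 lower genes), with a median log2 change of 0.04. Slc1a5, a sodium-dependent carrier of glutamine and other neutral amino acids, was at 1.18, 1.18 and 1.26 in WT and at 1.72, 1.65 and 1.83 in Pck1-CKO. Its log2 change was 0.52 ± 0.06, 1.44-fold, with limma adjusted p = 0.0189. Without WT 1, WT 2, Pck1-CKO 1 or Pck1-CKO 2 the adjusted p of Slc1a5 lay between 0.0695 and 0.0793, and over all alternatives between 0.00292 and 0.0793.

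Slc38a3, the basolateral glutamine carrier SNAT3, was singled out after its values had been seen. It was at 0.80, 0.71 and 1.40 in WT and at 1.64, 1.54 and 1.35 in Pck1-CKO, with WT 3 again apart from the other WT arrays. Its log2 change was 0.54 ± 0.20 and limma adjusted p = 0.131.

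Among 12 genes of citrate and dicarboxylate handling 1 fell and 0 rose in limma (without adjustment p was under 0.05 for 2 higher and 1 lower), and 9 had a positive change, with a median of 0.10. Slc13a1, the brush border sodium-sulfate cotransporter and a relative of Slc13a2, was at 5.98, 5.99 and 6.11 in WT and at 5.23, 5.38 and 5.35 in Pck1-CKO. The groups lay far apart. The log2 change was -0.71 ± 0.06, with limma adjusted p = 0.0141. Without WT 2, Pck1-CKO 1 or Pck1-CKO 2 the adjusted p of Slc13a1 lay between 0.0535 and 0.0636, and over all alternatives between 0.000947 and 0.0690.

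Of 17 genes of apical acid secretion and its regulators 0 passed in limma (without adjustment p was under 0.05 for 6, all higher), and their median log2 change was 0.07. Slc9a2, which encodes the exchanger NHE2, had the lowest p, with -0.34, -0.29 and 0.19 in WT compared with 0.44, 0.52 and 0.28 in Pck1-CKO. Its change was 0.56 ± 0.16 and limma adjusted p = 0.0797. Without WT 3 the change of Slc9a2 was 0.73 with adjusted p = 0.0319, and over all alternatives the adjusted p lay between 0.00790 and 0.225. Of 14 genes of basolateral base transport 0 passed in limma (2 higher and 1 lower had an unadjusted p under 0.05), with a median log2 change of 0.07. Ahcyl2, related to the NBCe1 regulator IRBIT, had the lowest p, with a change of 0.18 ± 0.06 and limma adjusted p = 0.113. Its second brightest probe gave -0.041.

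Of the 9 other carbonic anhydrase genes tested 1 rose and 0 fell in limma (2 higher and 2 lower had an unadjusted p under 0.05), and their median log2 change was -0.07. Car3, the isoform of fat and muscle, was at 1.16, 2.54 and 2.53 in WT and at 4.26, 4.15 and 4.65 in Pck1-CKO, and its change was 2.28 ± 0.40 (limma adjusted p = 0.0353). The adipocyte sums given above were lowest in WT 1 and highest in Pck1-CKO 3, as Car3 was, and the part of fat cells in its values was not tested. The adjusted p of Car3 lay between 0.0619 and 0.121 without WT 2, Pck1-CKO 1, Pck1-CKO 2 or Pck1-CKO 3, and between 0.00836 and 0.121 over all alternatives. Car13, a soluble isoform, had a change of 0.30 ± 0.08 (adjusted p = 0.0818), and Car8, which lacks enzyme activity, one of -0.58 ± 0.16 (adjusted p = 0.0814). That of Car8 was -0.36 with normexp and -0.21 with the second brightest probe. Car8 passed in 4 of 18 alternatives, among them without Pck1-CKO 3 (-0.76, adjusted p = 0.0224), and its adjusted p lay between 0.0125 and 0.300. Car13 ranged from 0.16 to 0.37 over the alternatives and Car11 from -0.52 to -0.27, and each passed in 2 of 18. Car11 had -0.39, Car5a, a mitochondrial isoform, -0.19, Car1 -0.07 and Car15, a membrane-anchored isoform of the mouse kidney, 0.10. As reported, none of these but Car3 passed in limma. Car9, which responds to low oxygen, was at 0.68, 0.69 and 1.71 across WT 1 to WT 3 and at 1.03, 0.97 and 0.52 across Pck1-CKO. Car9 had a change of -0.19, which was 0.16 without WT 3. Car7 had 0.00 and turned negative with quantile normalization or normexp, and Car1 turned positive with median scaling.

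**Figure D4:**
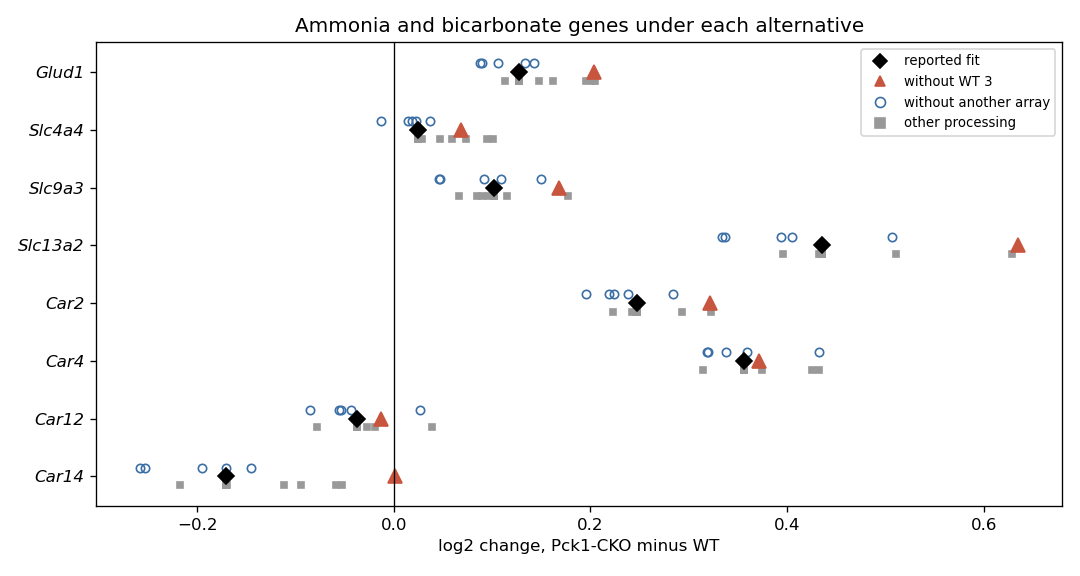
Log2 change (Pck1-CKO minus WT) of the 8 genes as reported (diamonds), without WT 3 (triangles), without each other array (circles) and with other processing (squares). Without WT 3 the value of Slc13a2 was 0.63 and that of Car14 was 0.00078, while Car4 stayed between 0.31 and 0.43 under every alternative.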

How the data were processed

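RNA of whole kidney carried the dye Cy3 on 1-colour Agilent arrays, as the labels state. Per the file headers, Agilent Feature Extraction 10.7.1.1 wrote the deposited intensity values, and its processed signal had background removed and a spatial trend corrected. In the deposited matrix each value is a linear ratio, the processed signal over 1 factor per array. This was checked against the scanner values, which settles scale and direction and shows no centring of genes. Its column medians were 0.105, 0.104 and 0.103 (WT 1 to WT 3) and 0.100, 0.098 and 0.099 (Pck1-CKO 1 to Pck1-CKO 3).

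Flagged spots were left out, log2 was taken, spots were averaged and the 75th percentile subtracted. Of 56605 probes, 34675 had 1 symbol through unversioned RefSeq accessions of GRCm38.p6. Probes well above background on at least 3 arrays were kept (38371), and the brightest stood for a gene. Second probes were fitted with all 38366 complete probes. Genes were tested with limma 3.58.1 (lmFit, eBayes) in R 4.3.3, 2-sided, without covariates, and checked on simulated data; errors of changes are standard errors. Normexp (offset 50) used median signals. The number of arrays limits precision. Genes named are the 8 members, Pck1, up to 3 called genes per list or the 1 with the lowest p, every tested carbonic anhydrase and the 3 genes nearest to the member with the lowest p. Slc38a3 and single cell type markers were named outside this rule, after their values were seen. Members and lists were chosen with earlier results of these data known. Sample numbers were not used as pairs.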

Additional observations from a re-analysis of the deposited data

How the results depend on the processing

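Under 18 alternatives, Car4 kept its direction and stayed past the threshold in 9, and Glud1, Slc9a3, Slc13a2 and Car2 kept their direction in all. The count of the 8 genes past the threshold, 1 as reported, was 0 with quantile normalization, no filter or the second brightest probe (limma, 2 at an unadjusted p under 0.05 in each), 2 with a variance trend, 4 with array weights (Car2, Car4, Glud1 and Slc13a2) and 0 to 2 on leaving out an array. Car4, Car2, Slc13a2 and Car12 have 1 probe each. With the second brightest probe, Car4 therefore kept its log2 change of 0.36, and its limma adjusted p became 0.0578. The count of other pathway genes, 3 as reported, was 10 with median scaling, 7 with normexp, 1 without a filter, 10 with a variance trend, 29 with array weights and 0 to 7 on leaving out an array. Over all genes 1377 became 2994 with median scaling, 142 without a filter, 837 with the second brightest probe, 2822 with a variance trend, 5899 with array weights and 25 to 1531 on leaving out an array. As reported 743 genes were higher and 634 lower, and with median scaling 2434 and 560. With the sample number as a replicate block, 4 genes passed in all, 0 of the 8 genes and 0 other pathway genes (2 and 18 at an unadjusted p under 0.05), and Car4 had adjusted p = 0.105. Same-numbered arrays of WT and Pck1-CKO lay in the same column of the slide, so the block stands for that position as well. Deviations of same-numbered arrays from their group means correlated at -0.001, -0.115 and -0.023. With 3 arrays in a group, these values cannot show whether anything else is shared. A call lost under the block does not by itself show a weaker effect.

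Some changes reversed. Car12 was 0.038 with median scaling. Car7 was -0.014 with quantile normalization and -0.00084 with normexp, Car1 was 0.0096 with median scaling, Ahcyl2 was -0.041 with the second brightest probe, and Car9 was 0.15 with array weights. On leaving out an array, Car12 ranged from -0.085 to 0.026, Car14 from -0.26 to 0.00078, Slc4a4 from -0.013 to 0.068, Car7 from -0.056 to 0.057 and Car9 from -0.36 to 0.16. The cause was not tested.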
